A study of Mus musculus with 11 samples.

Results

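Pdgfrb, Plekhg1, Eps8l3, Adamts2, Kcnk1, Lingo4, Tdrd9 and Fbxl21 are 8 protein-coding mouse genes whose read counts in sorted thymocytes were much larger in libraries labelled Tcf7 F/F : Vav1-Cre than in Tcf7 +/+ libraries. They were chosen for that difference, out of the 55471 gene identifiers of the Tcf7 count table and the 53801 of the Bcl11b count table, so their values in the Tcf7 table are given as a description with no test. All 8 passed the filter on low counts in the Tcf7 table, and 5 of the 8 passed it in the Bcl11b table, where they were tested. RNA was measured from thymocytes sorted as negative for CD24 and TCRβ. The Tcf7 table holds 3 libraries labelled Tcf7 F/F : Vav1-Cre and 2 Tcf7 +/+ libraries from mice at postnatal day 7. The Bcl11b table holds 2 libraries each of Bcl11b +/N440K, Bcl11b D/N440K and Bcl11b +/+ from mice at postnatal day 0. N440K is an amino acid change in Bcl11b, both mutant Bcl11b groups carry it, and the labels do not define the D allele.

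Tcf7 encodes TCF-1, an HMG-box factor of the TCF/LEF family that binds DNA with β-catenin or Groucho/TLE partners and is needed early in T cell development. Bcl11b is a zinc finger factor of T cell commitment, and the study's title concerns a mutant Bcl11b that interferes with the related factor Bcl11a. F/F marks an allele flanked by recombination sites, and Vav1-Cre is active in blood-forming cells in general, so T cell precursors and innate lymphoid cells alike would carry the deletion. Thymocytes without CD24 and TCRβ are a small population that can hold γδ T cells, innate lymphoid cells and NK cells. Of the 8 proteins, Pdgfrb, Kcnk1 and Lingo4 sit in the cell membrane, Plekhg1 and Eps8l3 are linked to the control of actin, Adamts2 is secreted, and Tdrd9 and Fbxl21 act in RNA silencing and protein turnover.

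The RefSeq table (build GRCm38.p6) held a start-site window of 300 bases, 250 before and 50 after the start, for 7 of the 8 genes, Pdgfrb being the exception. The motifs below were searched on both strands. The TCF/LEF core CTTTGA was in 1 of the 7 windows, against 16.0% of 32851 windows of all genes, and its longer form CTTTGAT, which contains the core, was in 0 of the 7, against 3.73%. TGACCA, the motif known for human BCL11A at globin promoters, was in 1 of the 7 windows, against 13.6% of all windows. The windows of Eps8l3 (chr3:107876980-107877279, + strand) and Plekhg1 (chr10:3872417-3872716, + strand) are shown because they hold these matches, in capitals: the core on the reverse strand, beginning 25 bases before the Eps8l3 start, and the BCL11A motif on the reverse strand, beginning 39 bases before the Plekhg1 start. Those of Lingo4 (chr3:94398969-94399268, + strand) and Tdrd9 (chr12:111971309-111971608, + strand) are shown because these genes moved in opposite directions in the Bcl11b table; neither window holds any of the 3 motifs. The RefSeq starts used for Plekhg1 and Lingo4 lie downstream of the GENCODE starts of these genes.
Eps8l3: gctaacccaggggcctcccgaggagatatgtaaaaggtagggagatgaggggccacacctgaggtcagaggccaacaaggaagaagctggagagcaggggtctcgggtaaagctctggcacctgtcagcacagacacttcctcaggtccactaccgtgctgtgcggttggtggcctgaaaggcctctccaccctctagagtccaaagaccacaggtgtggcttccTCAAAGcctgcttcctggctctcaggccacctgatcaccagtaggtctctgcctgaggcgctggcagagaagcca
Plekhg1: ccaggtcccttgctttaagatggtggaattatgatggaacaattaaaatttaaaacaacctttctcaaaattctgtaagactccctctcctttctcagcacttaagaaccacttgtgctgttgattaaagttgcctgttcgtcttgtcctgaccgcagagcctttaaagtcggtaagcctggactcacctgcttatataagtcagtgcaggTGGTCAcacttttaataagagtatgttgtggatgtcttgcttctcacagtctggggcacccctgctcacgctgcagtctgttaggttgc
Lingo4: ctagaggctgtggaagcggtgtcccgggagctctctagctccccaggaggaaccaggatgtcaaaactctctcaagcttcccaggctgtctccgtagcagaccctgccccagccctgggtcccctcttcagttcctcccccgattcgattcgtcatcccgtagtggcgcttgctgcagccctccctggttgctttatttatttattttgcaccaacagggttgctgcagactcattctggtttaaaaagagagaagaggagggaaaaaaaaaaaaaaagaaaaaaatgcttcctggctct
Tdrd9: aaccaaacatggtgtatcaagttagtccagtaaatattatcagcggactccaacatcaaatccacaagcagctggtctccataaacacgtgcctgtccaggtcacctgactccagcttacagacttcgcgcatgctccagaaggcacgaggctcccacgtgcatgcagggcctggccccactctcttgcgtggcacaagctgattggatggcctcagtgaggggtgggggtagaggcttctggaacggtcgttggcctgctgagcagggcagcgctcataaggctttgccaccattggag
The share of G and C in the windows ranged between 44.3% in Plekhg1 and 77.3% in Adamts2, with 51.7% in Lingo4, 55.7% in Tdrd9 and 59.0% in Eps8l3. A match describes letters in the window, and its absence says nothing about binding elsewhere.

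The libraries held between 999381 and 1842717 counted reads. Tcf7 itself was not lower in libraries labelled Tcf7 F/F : Vav1-Cre, with 847, 658 and 694 normalised CPM (read counts scaled to library size), against 552 and 593 CPM in Tcf7 +/+ libraries. A count over all exons of a gene does not show whether a part of it was deleted, so the label is used here as a label. Bcl11b was at 185 and 225 CPM in Bcl11b +/N440K, 152 and 204 CPM in Bcl11b D/N440K and 641 and 506 CPM in Bcl11b +/+ libraries. Libraries 1 and 3 labelled Tcf7 F/F : Vav1-Cre held 2091 and 2623 Xist reads and 0 reads of the Y-linked gene Ddx3y. Library 2 of that group held 11 Xist and 144 Ddx3y reads, and the Tcf7 +/+ libraries 6 and 1 Xist and 151 and 205 Ddx3y reads. The 8 genes together made up 2051 CPM in library 2, against 2194 and 2173 CPM in libraries 1 and 3. Each Bcl11b library held both Xist reads, 351 to 602, and Ddx3y reads, 21 to 34. The Tcf7 +/+ libraries differed from each other more than any other replicate pair, with a chi-square per degree of freedom of 4.94, against 1.14 to 2.16 for the others.

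In the Tcf7 table, the summed level of the 8 genes was 2194, 2051 and 2173 CPM in libraries labelled Tcf7 F/F : Vav1-Cre, against 149 and 118 CPM in Tcf7 +/+ libraries. In the Bcl11b table, the sum was 179 and 171 CPM in +/N440K, 128 and 132 CPM in D/N440K and 259 and 210 CPM in +/+ libraries. Most of the +/+ sum came from Lingo4 and Pdgfrb, with means of 126 and 69.7 CPM, and both had lower means in the mutant groups. Adamts2, Tdrd9 and Kcnk1 had higher means in both mutant groups than in +/+, not all past the test, so the sum does not describe each gene. The 2 tables were normalised separately and differ in age, so levels are not compared across them by a test. In these bulk libraries, fewer cells of a type and less RNA per cell cannot be told apart. By edgeR's quasi-likelihood test with Benjamini-Hochberg adjustment, 23.2% of the 12366 genes tested in the Tcf7 table were called at an adjusted p under 0.05, 12.0% higher (1487 genes) and 11.1% lower. Since the members were picked from that contrast, nothing is read from the 8 of 8 called. Their fitted log2 fold changes had a median of 4.41, also with Eps8l3 taken at its lower bound and Fbxl21 at the lower end of its counting interval, against 1.07 for the genes called higher and -0.01 for all genes tested. Lingo4 had the smallest difference of the 8, and 167 of the 1487 genes called higher lay at its fold change or above it, Lingo4 included.

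**Figure D1:**
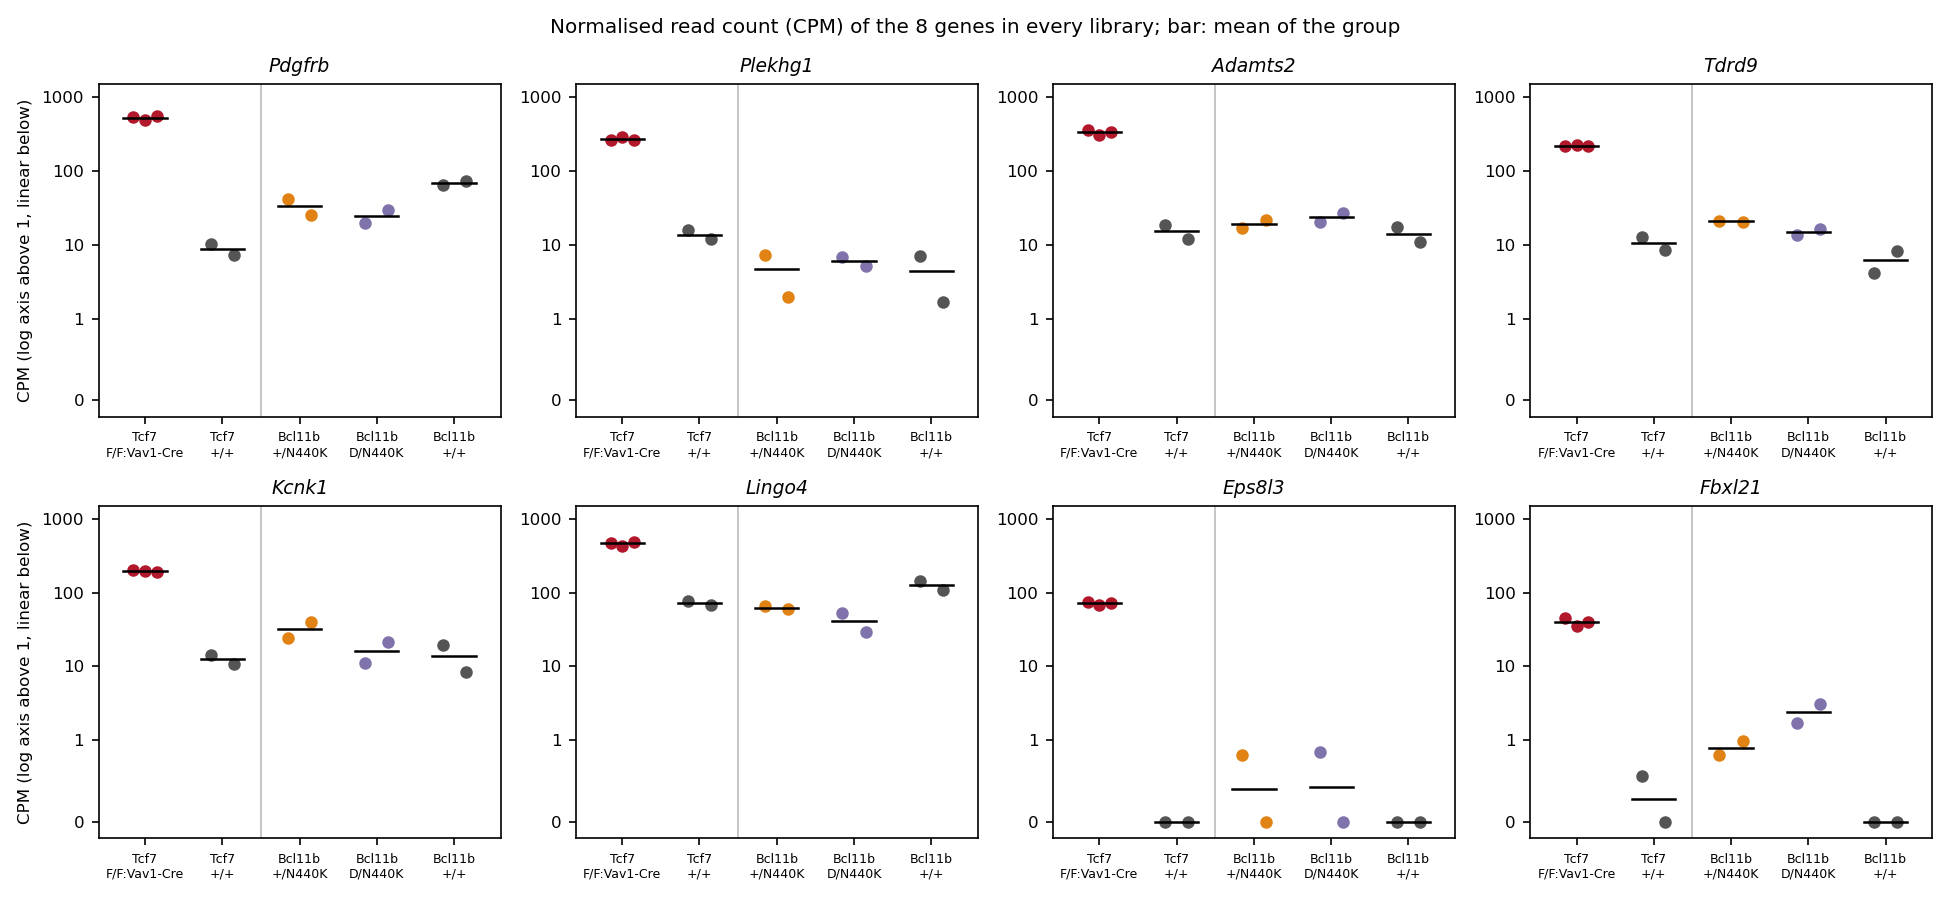
Normalised read count (CPM, log axis above 1 and linear below) of each of the 8 genes in every library of the 5 groups, with each point a library and the bar the group mean; the grey line parts the separately normalised tables. Points of libraries labelled Tcf7 F/F : Vav1-Cre lie between 35.0 and 562 CPM, above the Tcf7 +/+ points of the same gene in all 8 panels, and in the Bcl11b table Pdgfrb and Lingo4 lie lower in both N440K groups than in +/+.

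Pdgfrb (ENSMUSG00000024620, GRCm38 chr18:61045150-61085061, + strand), the receptor tyrosine kinase for PDGF-B that marks pericytes and other mesenchymal cells, had the largest log2 fold change of the 6 genes with reads in every library of the Tcf7 table. It was at 537, 493 and 562 CPM in libraries labelled Tcf7 F/F : Vav1-Cre, against 10.1 and 7.33 CPM in Tcf7 +/+ libraries. All 3 libraries were far above both Tcf7 +/+ libraries, with a fitted log2 fold change of 5.91 ± 0.198 (SE). Among the Bcl11b libraries, the order was the reverse, with the mutants below the control. Pdgfrb was at 41.6 and 25.7 CPM in +/N440K, 19.7 and 29.5 CPM in D/N440K and 65.5 and 73.9 CPM in +/+ libraries. Both mutant groups lay wholly below +/+ and overlapped each other. With 2 libraries a group, such separation is common. Of all genes tested, 23.8% lay wholly below +/+ in +/N440K and 25.7% in D/N440K. Pdgfrb fell in +/N440K relative to +/+ (log2 fold change -1.03 ± 0.218, edgeR adjusted p = 0.0008383). It also fell in D/N440K relative to +/+ (log2 fold change -1.53 ± 0.238, edgeR adjusted p = 5.851e-06). DESeq2 did not call the difference in +/N440K (adjusted p = 0.188). The difference of D/N440K from +/N440K did not pass the test (log2 fold change -0.50 ± 0.275, edgeR adjusted p = 0.6885).

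Among 14 tested genes of the PDGF system (ligands, the other receptors and signalling adaptors), 3 were higher and 3 lower in libraries labelled Tcf7 F/F : Vav1-Cre, and 8 did not pass. Src, a tyrosine kinase recruited by the receptor, had a log2 fold change of 2.14 and the adaptor Gab2 one of 1.02. Plcg1, a phospholipase that also acts in T cell receptor signalling, fell by 0.99 on the log2 scale, and the adaptor Nck1 by 0.94. Across the Bcl11b groups, 1 of 12 tested genes was higher and 3 were lower in +/N440K than in +/+, and 0 were higher and 2 lower in D/N440K than in +/+. Plcg1 was among the lower ones both times, with log2 fold changes of -1.45 in +/N440K and -4.01 in D/N440K, while Pdgfb, the ligand of Pdgfrb, was higher in +/N440K (log2 fold change 0.91, edgeR adjusted p = 0.000454). The list's median log2 fold change was -0.10 in the Tcf7 comparison, 0.08 in +/N440K and 0.21 in D/N440K, beside -0.01, 0.00 and 0.00 for all genes tested.

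Because Pdgfrb marks mural cells and fibroblasts, their markers were read in the same libraries. The summed level of 9 mural cell markers was 28.3 to 32.8 CPM in libraries labelled Tcf7 F/F : Vav1-Cre, against 21.4 to 25.4 CPM in Tcf7 +/+ libraries. Rgs5, Des and Abcc9 were at 0 in both groups, and the other mural markers had reads in both. Of the 9, 2 passed the filter and 1, Cspg4, was called higher (log2 fold change 1.97). The 7 fibroblast markers summed to 1.13 to 3.23 CPM in libraries labelled Tcf7 F/F : Vav1-Cre, against 1.13 to 3.94 CPM in Tcf7 +/+ libraries. Lum and Dpt were at 0 in both. At postnatal day 0, in the Bcl11b table, mural markers summed to 18.8 to 26.1 CPM in +/N440K, 41.7 to 47.1 CPM in D/N440K and 24.6 to 28.2 CPM in +/+ libraries, and of 2 tested, Cspg4 was called higher in D/N440K than in +/+ (log2 fold change 2.16). The part of these cell types in the values of Pdgfrb was not tested.

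Plekhg1 (ENSMUSG00000040624, chr10:3740364-3967303, + strand), a Dbl family guanine nucleotide exchange factor with a pleckstrin homology domain, was at 264, 293 and 263 CPM in libraries labelled Tcf7 F/F : Vav1-Cre. It was at 15.8 and 11.8 CPM in Tcf7 +/+ libraries. The groups lay far apart, with a fitted log2 fold change of 4.30 ± 0.194. In the Bcl11b table, it was under the filter, with 9 and 2 reads in +/N440K, 8 and 5 reads in D/N440K and 7 and 2 reads in +/+ libraries. Its means there were 4.66 ± 3.798 CPM in +/N440K, 5.97 ± 1.25 CPM in D/N440K and 4.41 ± 3.89 CPM in +/+ (SD, n = 2 each), and the 3 groups overlapped. Without the filter, the edgeR adjusted p was 0.9684 for +/N440K and 0.8191 for D/N440K, each against +/+, so a difference was not detectable at this depth.

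Of 18 other tested Dbl family exchange factors, 4 were higher and 4 lower in libraries labelled Tcf7 F/F : Vav1-Cre, with 10 not past the threshold. Tiam1, an activator of Rac, had a log2 fold change of 0.99, Arhgef11 one of 1.05, Prex1 one of 0.54 and Arhgef12 one of -1.82. In +/N440K, 3 of 17 were higher and 3 lower than in +/+, and in D/N440K 3 were higher and 2 lower. Plekhg5 was higher in both mutant groups (log2 fold change 1.26 in +/N440K and 1.04 in D/N440K), and Plekhg2 was lower in both (-0.50 in +/N440K and -0.93 in D/N440K). The list's median log2 fold change was between -0.07 and -0.03 in these 3 comparisons.

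Eps8l3 (ENSMUSG00000040600, chr3:107877229-107892900, + strand), a member of the EPS8 family of adaptors that link receptor tyrosine kinases to actin, had 92, 119 and 130 reads in libraries labelled Tcf7 F/F : Vav1-Cre, which is 74.4, 67.2 and 72.3 CPM. It had 0 reads in both Tcf7 +/+ libraries, where 3 reads over the group would be 0.845 CPM. All 341 reads of the Tcf7 table were thus in libraries labelled Tcf7 F/F : Vav1-Cre, where its level was at least 84.0-fold higher when the other group is set to 3 reads. Among the Bcl11b libraries, there was 1 read in +/N440K, 1 in D/N440K and 0 in +/+, all at or under the floor of 3 reads, so no fold is given. Floors and exact intervals cover counting error only. Eps8l3 shares 964 exonic bases with 4933431E20Rik on the opposite strand, which had 72, 94 and 74 reads in libraries labelled Tcf7 F/F : Vav1-Cre, against 1 and 0 reads in Tcf7 +/+ libraries. The strand used in counting is not stated, so reads of these overlapping genes cannot be told apart. Of 4 other EPS8-related genes tested, Eps8 was higher in libraries labelled Tcf7 F/F : Vav1-Cre (56.6 ± 4.35 CPM, SD, n = 3), against 10.1 ± 1.59 CPM (SD, n = 2) in Tcf7 +/+ libraries, and the other 3 did not pass. Across the Bcl11b groups, 3 of these genes were tested, and 1, Eps8l1, was lower in both mutant groups (log2 fold change -1.91 ± 0.569 in +/N440K and -1.69 ± 0.554 in D/N440K). These EPS8-related genes had a median log2 fold change of 0.38 in the Tcf7 comparison, -0.32 in +/N440K and -0.18 in D/N440K.

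Adamts2 (ENSMUSG00000036545, chr11:50602084-50807573, + strand), the secreted proteinase that removes the amino-terminal propeptide of fibrillar procollagens, was at 367, 305 and 337 CPM in libraries labelled Tcf7 F/F : Vav1-Cre, against 18.6 and 11.8 CPM in Tcf7 +/+ libraries. The fitted log2 fold change was 4.46 ± 0.202. At postnatal day 0, in the Bcl11b table, it was at 17.1 and 21.7 CPM in +/N440K, 20.5 and 27.5 CPM in D/N440K and 17.4 and 10.8 CPM in +/+ libraries. The +/N440K and +/+ libraries overlapped, and the D/N440K libraries were both above +/+, as for 25.3% of all genes tested. Neither mutant group passed the test against +/+, with log2 fold changes of 0.48 ± 0.357 in +/N440K (edgeR adjusted p = 0.5111) and 0.78 ± 0.344 in D/N440K (edgeR adjusted p = 0.1494).

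The fibroblast markers above, at or near 0, include Col1a1, Col1a2 and Col3a1, which encode substrates of Adamts2. Of 12 tested genes of collagen processing and of the ADAMTS family, 3 were higher and 4 lower in libraries labelled Tcf7 F/F : Vav1-Cre. Adamts6 fell by 2.25 on the log2 scale. Adamts3, a procollagen N-proteinase like Adamts2, was at 0 CPM in libraries labelled Tcf7 F/F : Vav1-Cre, against a mean of 10.99 CPM in Tcf7 +/+ libraries. Adamts20 was at 0 CPM in libraries labelled Tcf7 F/F : Vav1-Cre, against 18.9 CPM in Tcf7 +/+ libraries. Plod3, a collagen lysyl hydroxylase, was higher (log2 fold change 1.12). In the Bcl11b table, 1 of 7 was higher and 1 lower in +/N440K, and 4 were higher and 1 lower in D/N440K, each against +/+. Adamts14, another procollagen N-proteinase, was higher in D/N440K than in +/+ (61.7 CPM in D/N440K, against 17.03 CPM in +/+; log2 fold change 1.82 ± 0.25), and P4ha1, a prolyl hydroxylase, was lower in both mutant groups (-1.10 in +/N440K and -1.53 in D/N440K). Their median log2 fold change was -0.42 in the Tcf7 comparison, also with Adamts3 and Adamts20 at the bound set by 3 reads, 0.19 in +/N440K and 0.42 in D/N440K.

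Kcnk1 (ENSMUSG00000033998, chr8:125995170-126030685, + strand), the K2P potassium channel TWIK-1 of background conductance, was at 205, 198 and 191 CPM in libraries labelled Tcf7 F/F : Vav1-Cre, against 14.1 and 10.7 CPM in Tcf7 +/+ libraries. The fitted log2 fold change was 3.99 ± 0.201. Among the Bcl11b libraries, it was at 24.5 and 40.5 CPM in +/N440K, 11.1 and 21.4 CPM in D/N440K and 19.4 and 8.30 CPM in +/+ libraries. Both +/N440K libraries lay above the other 4, and D/N440K overlapped +/+. Of all genes tested, 24.0% had both +/N440K libraries above +/+, and 17.6% had both D/N440K libraries below +/N440K. Kcnk1 rose in +/N440K relative to +/+ (log2 fold change 1.25 ± 0.356, edgeR adjusted p = 0.01592). This call was lost without +/+ library 2 (log2 fold change 0.70, adjusted p = 0.3624), without +/N440K library 2 (0.87, adjusted p = 0.2268) and with DESeq2 (adjusted p = 0.5278). In D/N440K relative to +/+ the log2 fold change was 0.25 ± 0.418 (edgeR adjusted p = 0.8062), and its sign turned without +/+ library 2 (-0.29) or without D/N440K library 2 (-0.26).

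Kcnk1 shares 179 exonic bases with Gm45875 on the opposite strand, which had 9, 14 and 11 reads in libraries labelled Tcf7 F/F : Vav1-Cre, against 0 and 0 in Tcf7 +/+ libraries; Kcnk1 itself had 254 to 350 reads there. Of 13 other K2P channels, 3 were tested in the Tcf7 table, and 2 were higher: Kcnk5, at 118 ± 12.6 CPM (SD, n = 3) in libraries labelled Tcf7 F/F : Vav1-Cre, against 35.2 ± 2.78 CPM (SD, n = 2) in Tcf7 +/+ libraries, and Kcnk7, with a log2 fold change of 1.36. Across the Bcl11b groups, 2 were tested and 0 were called by edgeR in any of the 3 comparisons. Kcnk5 had log2 fold changes of -0.42 ± 0.192 in +/N440K and -0.34 ± 0.191 in D/N440K relative to +/+. The K2P channels tested had a median log2 fold change of 1.36 in the Tcf7 comparison, 0.22 in +/N440K and -0.07 in D/N440K.

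Lingo4 (ENSMUSG00000044505, chr3:94398517-94404501, + strand), a membrane protein with leucine-rich repeats and an immunoglobulin domain, had the smallest fold difference of the 8 in the Tcf7 table and the highest level per kilobase of exon in Tcf7 +/+ libraries. It was at 479, 433 and 486 CPM in libraries labelled Tcf7 F/F : Vav1-Cre, against 76.6 and 68.2 CPM in Tcf7 +/+ libraries, a fitted log2 fold change of 2.69 ± 0.144. At postnatal day 0, in the Bcl11b table, it was at 65.3 and 59.2 CPM in +/N440K, 53.1 and 29.5 CPM in D/N440K and 145 and 107 CPM in +/+ libraries. The 3 groups did not overlap, with D/N440K lowest and +/+ highest. Of all genes tested, 23.8% lay wholly below +/+ in +/N440K and 25.7% in D/N440K, and 17.6% lay wholly below +/N440K in D/N440K. Lingo4 fell in +/N440K relative to +/+ (log2 fold change -0.99 ± 0.174, edgeR adjusted p = 5.834e-05). It fell in D/N440K relative to +/+ as well (log2 fold change -1.56 ± 0.191, edgeR adjusted p = 5.124e-08). Both calls held under all 12 alternatives tried, of which another prior count and the reads recovered from the authors' CPM left the adjusted p unchanged. D/N440K was lower than +/N440K at an unadjusted p of 0.01412, which did not pass (log2 fold change -0.56 ± 0.22, edgeR adjusted p = 0.3994). The other 3 LINGO family genes were under the filter in both tables.

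Lingo4 shares 79 exonic bases with Gm43401 on the opposite strand, which had 35, 40 and 30 reads in libraries labelled Tcf7 F/F : Vav1-Cre, against 9 and 10 in Tcf7 +/+ libraries, where Lingo4 had 593 to 874 reads and 136 and 121 reads.

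Csf1r, the receptor of macrophage colony-stimulating factor, lies 15536 bases downstream of Pdgfrb on the same strand. It was at 502, 468 and 551 CPM in libraries labelled Tcf7 F/F : Vav1-Cre, against 275 and 144 CPM in Tcf7 +/+ libraries, which differed from each other. Among the Bcl11b libraries, Csf1r averaged 42.6 ± 2.55 CPM in +/N440K, 59.8 ± 2.58 CPM in D/N440K and 27.0 ± 5.26 CPM in +/+ libraries (SD, n = 2 each). It rose in D/N440K relative to +/+ (log2 fold change 1.17 ± 0.225, edgeR adjusted p = 0.0001648), where Pdgfrb fell, and did not pass in +/N440K (0.67, edgeR adjusted p = 0.06853). Slc6a7, 30927 bases upstream of Pdgfrb, had 18, 24 and 35 reads in libraries labelled Tcf7 F/F : Vav1-Cre, against 0 and 1 reads in Tcf7 +/+ libraries, and 0 in every Bcl11b library. Next to Eps8l3, Gstm5 lies 2920 bases downstream and averaged 19.9 CPM in libraries labelled Tcf7 F/F : Vav1-Cre, against 0.282 CPM in Tcf7 +/+ libraries. Csf1, 116759 bases upstream of Eps8l3, averaged 182 CPM in libraries labelled Tcf7 F/F : Vav1-Cre, against 18.0 CPM in Tcf7 +/+ libraries. Not all neighbours stood so: Mthfd1l, 5814 bases downstream of Plekhg1, averaged 84.5 CPM in libraries labelled Tcf7 F/F : Vav1-Cre, against 132 CPM in Tcf7 +/+ libraries, and Atp5mpl, 4581 bases upstream of Tdrd9, had a log2 fold change of -0.21 ± 0.263.

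**Figure D2:**
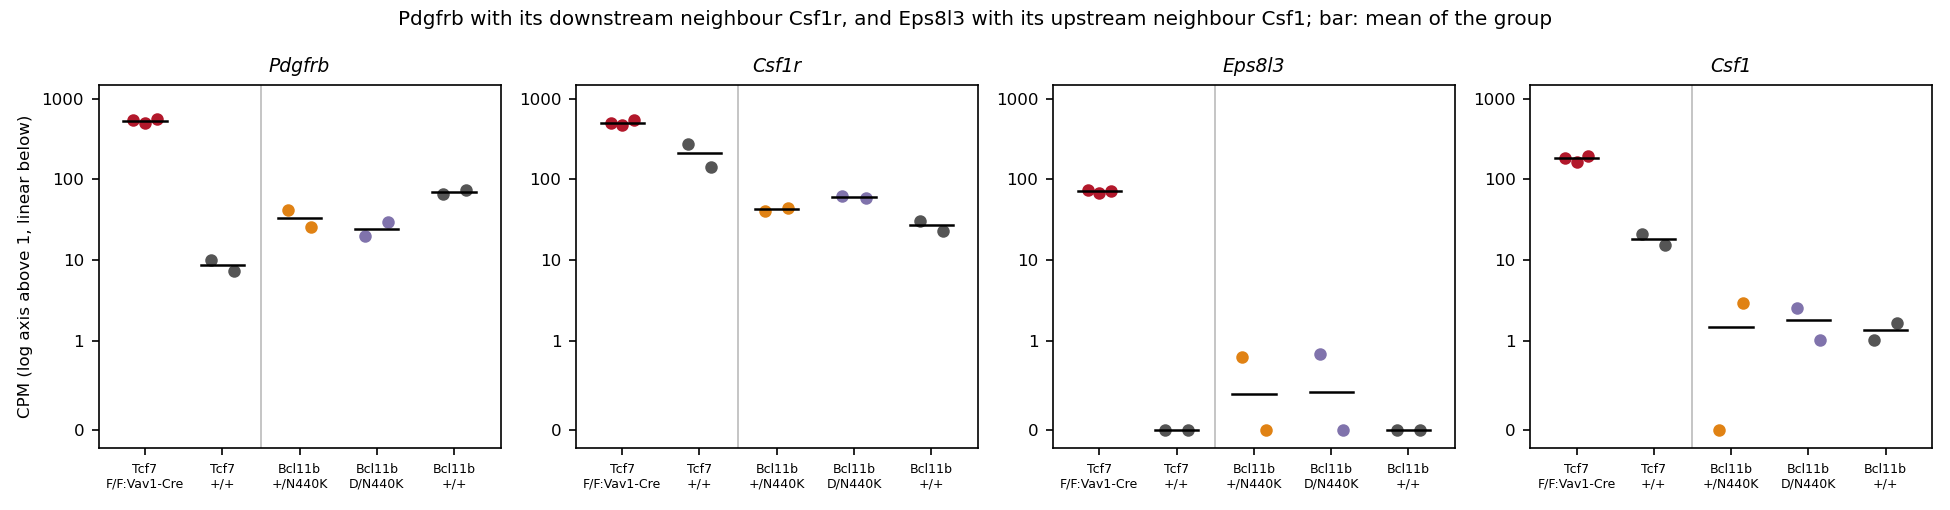
Normalised read count (CPM, log axis above 1 and linear below) of Pdgfrb, of Csf1r 15536 bases downstream of it, of Eps8l3 and of Csf1 116759 bases upstream of it, with each point a library and the bar the group mean; the grey line parts the separately normalised tables. All 4 genes are higher in libraries labelled Tcf7 F/F : Vav1-Cre than in Tcf7 +/+, and in the Bcl11b table Pdgfrb is lower and Csf1r higher in D/N440K than in +/+, while Eps8l3 and Csf1 stay at 2.96 CPM or less.

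Tdrd9 (ENSMUSG00000054003, chr12:111971559-112068854, + strand), a Tudor domain helicase that works with PIWI proteins to silence transposons in the male germ line, varied least between libraries of its high group. It was at 220.8, 226 and 220.9 CPM in libraries labelled Tcf7 F/F : Vav1-Cre, against 12.96 and 8.455 CPM in Tcf7 +/+ libraries. The fitted log2 fold change was 4.37 ± 0.208. Across the Bcl11b groups, it was at 21.2 and 20.7 CPM in +/N440K, 13.7 and 16.3 CPM in D/N440K and 4.09 and 8.30 CPM in +/+ libraries. The 3 groups did not overlap, with +/N440K highest and +/+ lowest. Of all genes tested, 24.0% lay wholly above +/+ in +/N440K and 25.3% in D/N440K, and 17.6% lay wholly below +/N440K in D/N440K. Tdrd9 rose in +/N440K relative to +/+ (log2 fold change 1.69 ± 0.417, edgeR adjusted p = 0.003924). The call was lost without +/+ library 1 (log2 fold change 1.33, adjusted p = 0.08564) and with DESeq2 (adjusted p = 0.2669). In D/N440K the log2 fold change relative to +/+ was 1.203 ± 0.454, not past the threshold by edgeR (adjusted p = 0.07503) and past it by limma on the authors' CPM (adjusted p = 0.03698).

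Of 17 other genes of the piRNA pathway and the Tudor family, 4 were tested in each table, so most of the pathway was under the filter. In libraries labelled Tcf7 F/F : Vav1-Cre, Tdrd7 was higher, at 72.2 ± 3.23 CPM (SD, n = 3), against 29.9 ± 7.17 CPM (SD, n = 2) in Tcf7 +/+ libraries, and Tdrd5 was lower, with a log2 fold change of -3.15. In +/N440K, 2 of the 4 were higher and 1 lower than in +/+, namely Tdrkh (1.37), Tdrd3 (0.72) and Tdrd5 (-2.82) on the log2 scale. In D/N440K, 2 were higher and 0 lower, namely Tdrd3 (0.73) and Tdrd7 (0.86). Over the 4 tested, the median log2 fold change was 0.11 in the Tcf7 comparison, 0.70 in +/N440K and 0.61 in D/N440K.

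Fbxl21 (ENSMUSG00000035509, chr13:56522472-56537898, + strand), the substrate-binding subunit of an SCF ubiquitin ligase that acts on cryptochromes of the circadian clock, had the fewest reads of the 8 in the group labelled Tcf7 F/F : Vav1-Cre. It had 56, 62 and 72 reads there, which is 45.3, 35.0 and 40.1 CPM, against 1 and 0 reads in Tcf7 +/+ libraries. The ratio of 190 reads to 1, corrected for depth, was 140, with a 95% exact counting interval of 24.9 to 5573. At postnatal day 0, in the Bcl11b table, it had 1 and 1 reads in +/N440K, 2 and 3 reads in D/N440K and 0 and 0 reads in +/+ libraries. The 5 reads of D/N440K gave a level 1.69 times that of +/+ set to 3 reads over the group. That value leaves out the counting error of the 5 reads, so no rise is read from it. The level in D/N440K was 2.60 times that of +/N440K, with an interval of 0.426 to 27.3. Without the filter the edgeR adjusted p was 0.8341 in +/N440K and 0.3852 in D/N440K, each against +/+. Of 16 tested genes for FBXL proteins, their SCF partners and cryptochromes, 1 was higher and 0 lower in libraries labelled Tcf7 F/F : Vav1-Cre (Fbxl20, log2 fold change 0.48). In the Bcl11b table, 0 were higher and 1, Fbxl12, was lower in each mutant group relative to +/+ (log2 fold change -0.79 in +/N440K and -0.72 in D/N440K). Over the 16, the median was 0.08 in the Tcf7 comparison, -0.08 in +/N440K and -0.10 in D/N440K.

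Per kilobase of exon, the order of the 8 genes differed from that by CPM. In libraries labelled Tcf7 F/F : Vav1-Cre, Lingo4 was highest with a mean of 128 CPM per kilobase, followed by Pdgfrb with 96.9 and Kcnk1 with 88.6. Tdrd9 with 41.1, Adamts2 with 36.0, Eps8l3 with 31.4 and Plekhg1 with 31.3 CPM per kilobase formed a middle group, and Fbxl21 had 8.37. In Tcf7 +/+ libraries, Lingo4 was also highest with 19.9 CPM per kilobase and Kcnk1 second with 5.55. Tdrd9, Adamts2, Pdgfrb and Plekhg1 lay between 1.58 and 1.98 CPM per kilobase there, so their order among themselves was not resolved by 2 libraries. In Bcl11b +/+ libraries the order began with Lingo4 at 34.6, Pdgfrb at 12.7 and Kcnk1 at 6.21 CPM per kilobase.

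In the comparison of +/N440K with +/+, 4 of the 5 tested genes were called, where 10.1% of all 10910 genes tested were called. Tdrd9 and Kcnk1 were higher, beside 4.79% of all genes called higher, and Pdgfrb and Lingo4 were lower, beside 5.3% called lower. In D/N440K compared with +/+, 2 of the 5 were called, Pdgfrb and Lingo4, both lower, where 12.4% of all genes were called, 6.1% higher and 6.31% lower. The median log2 fold change of the 5 genes was 0.48 in +/N440K and 0.25 in D/N440K, against 0.00 for all genes tested. These medians are the values of a single gene each, Adamts2 in +/N440K and Kcnk1 in D/N440K, and neither value passed the test. As the 5 genes lay on both sides of 0, no common direction is read from the medians. Both comparisons use the same pair of +/+ libraries. Under DESeq2, 1 of the 5, Lingo4, was called in +/N440K. In D/N440K compared with +/N440K, 0 of the 5 were called by edgeR, and 0 by DESeq2 and by limma on CPM, where edgeR called 0.532% of all genes, 0.284% higher and 0.247% lower. Kcnk1 (log2 fold change -1.001 ± 0.344) and Lingo4 were the 2 with an unadjusted p under 0.05.

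**Figure D3:**
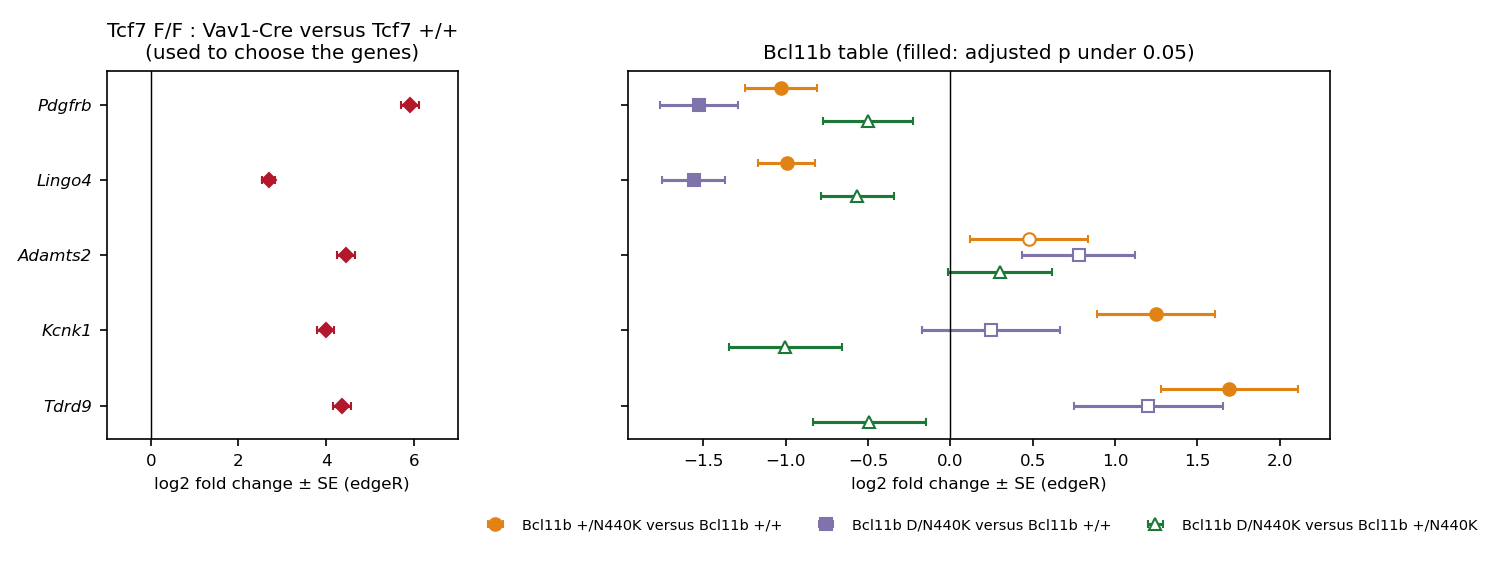
Fitted log2 fold change (x axis) of the 5 genes tested in both tables, with bars of 1 standard error on either side: left, libraries labelled Tcf7 F/F : Vav1-Cre relative to Tcf7 +/+, the contrast that chose the genes; right, the 3 comparisons of the Bcl11b table, filled where the edgeR adjusted p was under 0.05. All 5 lie between 2.69 and 5.91 on the left, while on the right Pdgfrb and Lingo4 lie below 0 and Adamts2, Kcnk1 and Tdrd9 above 0 in both mutant groups relative to +/+.

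The wider set of genes called higher in the Tcf7 table was also split in the Bcl11b table. Of the 1487, 1097 were tested there. In +/N440K 141 of these (12.9%) were higher and 99 (9.02%) lower than in +/+, beside 4.79% and 5.3% of all genes tested. In D/N440K, 184 (16.8%) were higher and 134 (12.2%) lower, beside 6.1% and 6.31% of all genes tested. Among the 167 at the fold change of Lingo4 or above, 47 were tested, with 14 higher and 8 lower in +/N440K, and 13 higher and 11 lower in D/N440K. Pdgfrb and Lingo4 are among the 8 and the 11 lower ones, and Tdrd9 and Kcnk1 among the 14 higher ones.

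**Figure D4:**
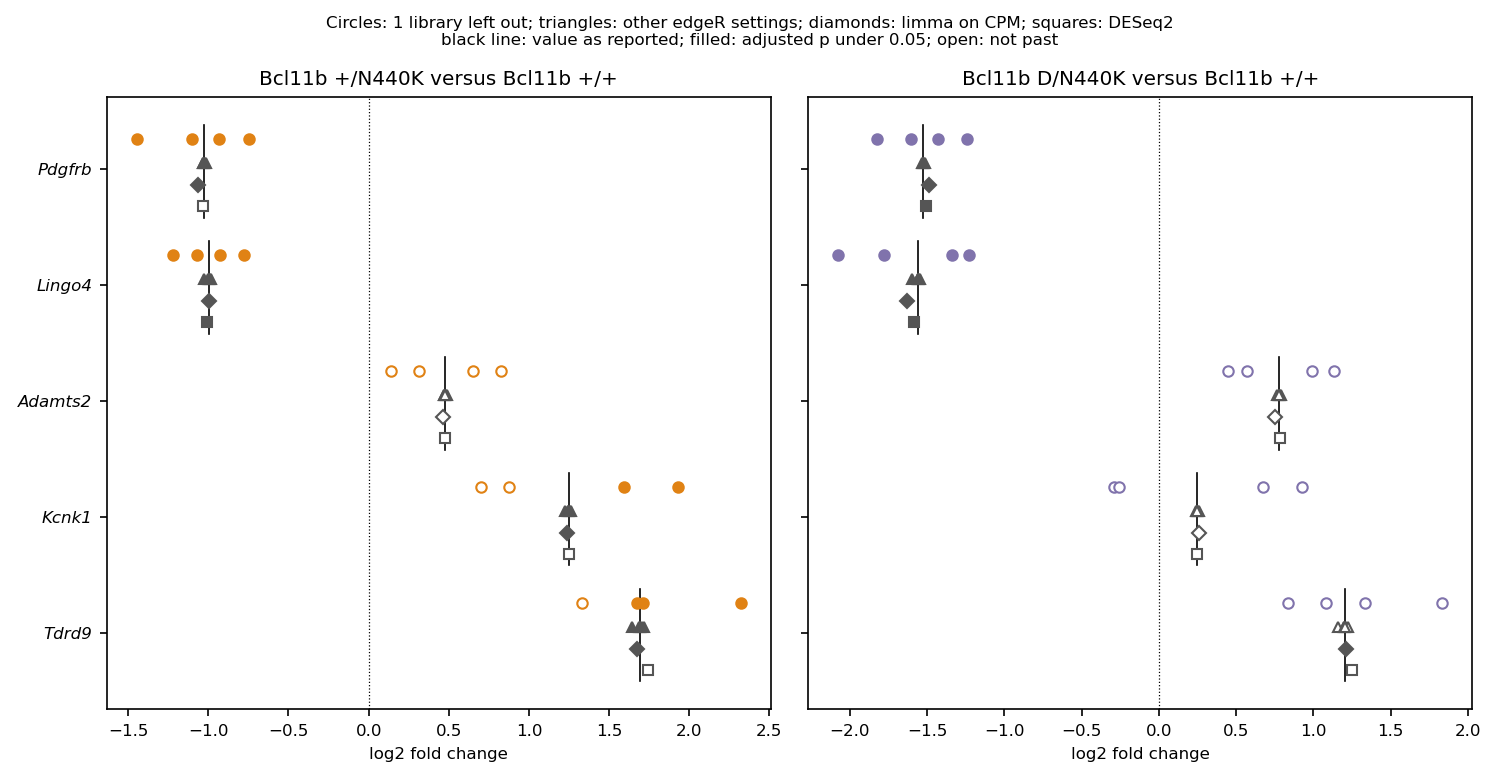
Log2 fold change (x axis) of the 5 tested genes in +/N440K (left) and D/N440K (right) relative to Bcl11b +/+ under each alternative: circles leave out 1 library, triangles are other edgeR settings, diamonds limma on CPM and squares DESeq2, filled where the adjusted p was under 0.05; the black line is the value as reported. Pdgfrb and Lingo4 stay below 0 throughout, Kcnk1 crosses 0 in D/N440K, and Tdrd9 stays above 0, between 1.33 and 2.32 in +/N440K.

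For each of the 8, the gene of most similar pattern over the 5 libraries of the Tcf7 table was sought among 10795 named genes, by Pearson's r of log2(CPM + 1). These were S1pr3 for Pdgfrb, Nr1d1 for Plekhg1, Zfp652 for Eps8l3, Heyl for both Adamts2 and Fbxl21, Lrrn2 for Kcnk1, Spon2 for Lingo4 and Coro2b for Tdrd9, with r of 0.9997 to 1.0. The points fall into 2 clusters by genotype and share their libraries, and 162 to 200 genes reached 0.99 for each of the 8, so the likeness singles out no partner. Heyl, a Notch target, averaged 81.2 CPM in libraries labelled Tcf7 F/F : Vav1-Cre, against 1.13 CPM in Tcf7 +/+ libraries. Among the Bcl11b libraries, Coro2b fell in both mutant groups relative to +/+ (log2 fold change -1.29 ± 0.153 in +/N440K and -2.07 ± 0.174 in D/N440K), where Tdrd9 was higher or did not pass. Zfp652 was called higher in both mutant groups (log2 fold change 0.25 ± 0.0764 in +/N440K and 0.43 ± 0.0757 in D/N440K). Nr1d1 did not pass in +/N440K (0.07 ± 0.213) and was called lower in D/N440K (-0.76 ± 0.243, edgeR adjusted p = 0.03015). Heyl and Spon2 did not pass there in either mutant group, and S1pr3 and Lrrn2 were not tested.

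Of 9 tested genes of the TCF/LEF family and its partners, 1 was higher and 3 lower in libraries labelled Tcf7 F/F : Vav1-Cre than in Tcf7 +/+ libraries, and 5 did not pass: Tcf7 itself had a log2 fold change of 0.35, Lef1 one of -1.09, Axin2 one of -1.16 and the co-repressor Tle4 one of -0.63. Of 7 tested in the Bcl11b table, 0 were higher, 2 lower than in +/+ and 5 did not pass in each mutant group, the lower ones being Lef1 (log2 fold change -1.79 in +/N440K and -1.85 in D/N440K) and Tcf7 (-0.39 in +/N440K and -0.37 in D/N440K). The median log2 fold change of the tested members of this family was -0.12 in the Tcf7 comparison, -0.16 in +/N440K and -0.32 in D/N440K.

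Markers of lymphoid subsets and of other blood cells also differed between the groups, and their part in the values of the 8 genes was not tested. In libraries labelled Tcf7 F/F : Vav1-Cre, ILC2 markers summed to 388 to 440 CPM, against 109 to 144 CPM in Tcf7 +/+ libraries, and myeloid markers, Csf1r included, to 1006 to 1141 CPM, against 393 to 664 CPM in Tcf7 +/+ libraries. Endothelial markers, most of it Pecam1, summed to 365 to 417 CPM in libraries labelled Tcf7 F/F : Vav1-Cre, against 222 to 278 CPM in Tcf7 +/+ libraries, with Cldn5 at 0 in the first group and Tek at 0 in the other. Mast cell and basophil markers summed to 17.8 to 46.3 CPM in libraries labelled Tcf7 F/F : Vav1-Cre, against 3.38 to 10.7 CPM in Tcf7 +/+ libraries. NK and ILC1 markers were at 373 to 450 CPM in libraries labelled Tcf7 F/F : Vav1-Cre, against 480 to 627 CPM in Tcf7 +/+ libraries. Double-positive thymocyte markers were at 447 to 450 CPM, against 911 to 931 CPM in Tcf7 +/+ libraries. Of 6 double-positive markers tested there, 5 were called lower and 1 higher, with a median log2 fold change of -3.73. B lineage markers summed to 43.5 to 56.6 CPM in libraries labelled Tcf7 F/F : Vav1-Cre, against 150.5 to 158 CPM in Tcf7 +/+ libraries, and 5 of 6 were called lower. Across the Bcl11b groups, NK and ILC1 markers summed to 882 to 969 CPM in +/N440K, 1103 to 1182 CPM in D/N440K and 386 to 427 CPM in +/+ libraries. ILC2 markers summed to 113 to 131 CPM in +/N440K, 61.7 to 68.2 CPM in D/N440K and 151 to 168 CPM in +/+ libraries. Of 4 ILC2 markers tested, 0 were called in +/N440K and 2 were called lower in D/N440K. Myeloid markers summed to 229 to 271 CPM in +/N440K, 313 to 326 CPM in D/N440K and 129 to 168 CPM in +/+ libraries. Of 5 myeloid markers tested, 2 were called higher in +/N440K and 3 in D/N440K. Double-positive markers summed to 57.9 to 59.2 CPM in +/N440K, 44.5 to 68.2 CPM in D/N440K and 636 to 640.1 CPM in +/+ libraries. All 6 tested were called lower in each mutant group. Of the markers of γδ T cells, Sox13 averaged 18.8 CPM in +/N440K, 11.3 CPM in D/N440K and 468 CPM in +/+ libraries, Blk 27.0 CPM in +/N440K, 9.56 CPM in D/N440K and 259 CPM in +/+ libraries, and Maf 254 CPM in +/N440K, 188 CPM in D/N440K and 431 CPM in +/+ libraries, and each of these was called lower in both mutant groups. Relative to Tcf7 +/+, libraries labelled Tcf7 F/F : Vav1-Cre had Sox13 called lower (log2 fold change -5.44) and Maf called higher (0.60), and Blk did not pass (-0.26). Lymphoid genes such as Ptprc, Il2rb and Il7r summed to 2905 CPM or more in every library, and Cd24a, the gene of the sort marker, averaged 2.12 CPM in libraries labelled Tcf7 F/F : Vav1-Cre and 10.1 CPM in Tcf7 +/+ libraries, and 1.22 CPM in +/N440K, 2.22 CPM in D/N440K and 11.3 CPM in Bcl11b +/+ libraries.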

How the data were processed

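Counts per Ensembl gene were deposited by the authors without normalization. Per the labels' protocols, libraries were made with a modified RamDA-seq method and Tn5 tagmentation. Among the tools named in the submitters' processing notes are STAR 2.7.3a, HTSeq 0.11.2, Picard 2.21.1, SAMtools 1.9, fastp 0.20.0 and edgeR (version not given in the sources used here), with mm10 (GRCm38) as the build. The authors also deposited CPM per gene. Checked on all values, 100% of these gave whole reads within 0.001, and the count test on those reads called the same numbers of genes (1101, 1353, 58 and 2863) as the deposited counts.

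Each table was filtered with filterByExpr (minimum count 10), normalised by TMM and fitted with edgeR 4.0.16 (quasi-likelihood test, a coefficient per group, R 4.3.3), two-sided, with Benjamini-Hochberg adjustment over 10910 genes (Bcl11b table) and 12366 genes (Tcf7 table), and calls at adjusted p under 0.05. CPM are these TMM-normalised values, a standard error is the log2 fold change divided by the root of F, and exon lengths and coordinates come from GENCODE M21. Where a group had 0 reads, a floor of 3 reads over the group gave a bound; with 1 to 3 reads, a ratio has an exact 95% interval. The labels do not say that replicates were separate animals, so p-values measure the spread between libraries, which may be technical. Replicate numbers did not pair the libraries: correlations of their deviations were between -0.108 and 0.0729.

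Alternatives were RLE normalization, no filter, DESeq2 1.42.0, limma 3.58.1 on log2(CPM + 1) of the authors' CPM, a replicate block, a prior count of 0.5 in place of 0.125, the compared groups only, each library left out, and, chosen after seeing the data, the recovered reads. The fit was tested on simulated data. For +/N440K relative to +/+, it called 60% of 2-fold and 88% of 4-fold differences, and 5.13% of its calls were false. For the Tcf7 comparison, these values were 62%, 95% and 6.55%. A gene that did not pass may thus still differ by 2-fold. The genes and the lists of related and marker genes were chosen with earlier results of these data known. From each list, up to 4 called genes of smallest p are named, or the highest in level where none was called; the neighbours are the nearest genes past the filter on either side, and the likeness search left out predicted genes. Gene lists hold only genes past the filter where counted as tested. Some results covered by these rules are not reported here.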

Additional observations from a re-analysis of the deposited data

How the results depend on the processing

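Of 180 values of the 5 genes tested in the Bcl11b table under alternatives, 171 kept their direction and their side of the threshold, 6 were no longer called, 1 became called and 2 changed sign, both for Kcnk1 in D/N440K relative to +/+ (-0.2927 without +/+ library 2 and -0.2581 without D/N440K library 2; leaving out a library gave -0.2927 to 0.9245). With DESeq2, 1 of the 5 genes was called in +/N440K relative to +/+ in place of 4, and leaving out a library gave 3 to 4. In D/N440K relative to +/+ the count was 2 to 3 under every alternative, and in D/N440K relative to +/N440K it was 0 under every alternative. Over all genes, DESeq2 called 312, 466, 2 and 1820 for +/N440K relative to +/+, D/N440K relative to +/+, D/N440K relative to +/N440K and the Tcf7 table, in place of 1101, 1353, 58 and 2863; the cause was not tested. Without the filter, 91 genes were called in D/N440K relative to +/N440K and 1606 in the Tcf7 table, with more genes tested. With a replicate block, 37 were called in D/N440K relative to +/N440K; the replicate numbers do not pair the libraries, and the block changed no call of a member. Leaving out a library gave 726 to 945, 924 to 1007, 25 to 63 and 1700 to 4612 calls in the same order of comparisons, the 4612 without Tcf7 +/+ library 1 and the 1700 without library 3 labelled Tcf7 F/F : Vav1-Cre; a lone library left in a group is taken to vary as the other groups do. In the Tcf7 table, 89 of 96 values of the 8 genes moved by less than the SD between libraries of the difference between the groups in log2(CPM + 1), a measure other than the standard error of the fit. Without Tcf7 +/+ library 1, the log2 fold changes of Pdgfrb (6.17 in place of 5.91), Adamts2 (4.82 in place of 4.46), Tdrd9 (4.71 in place of 4.37), Plekhg1 (4.53 in place of 4.30) and Kcnk1 (4.20 in place of 3.99) moved by more than their standard errors. The other 7 values belong to Eps8l3 and Fbxl21, whose fitted values depend on the prior count and are not given. Depth limited Plekhg1, Eps8l3 and Fbxl21 in the Bcl11b table, where 0 to 9 reads per library were counted.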
